A study of Mus musculus with 4 samples.

Results

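Cldn1, Cldn5, Cldn11, Cldn12, Cldn19, Tjp1, Ocln, F11r and Slc2a1 are 9 genes whose proteins seal peripheral nerve or carry glucose into it. They were taken by gene symbol, and all 9 were found among the 50593 genes of the table. Sciatic nerve RNA came from mice of strain 129S1/SvImJ at 6 months of age, with 2 mice labelled HSF V30M and 2 labelled HSF WT. All mice were heterozygous for a deletion of Hsf1, the heat shock transcription factor gene, and HSF V30M mice also carried the human TTR V30M transgene on a background without endogenous Ttr. HSF WT mice, described as wild type otherwise, had no transgene. The methods put n at 4 for the sequencing, which may be the mice of both groups, and the promoter of the transgene is not given in the sources used here. For each gene and group the table holds 1 FPKM value, the number of fragments of a transcript per kilobase of its length and relative to depth, estimated by Cuffdiff over the libraries of the group. No spread between mice can therefore be given, no test was made, and a difference between the groups cannot be told apart from one between individual mice or dissections.

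The nerve keeps its interior apart from the blood and from the surrounding tissue. Endothelial cells of the endoneurial vessels form the blood-nerve barrier, and the flattened cells of the perineurium wrap each fascicle; in both, claudins and occludin join neighbouring membranes and are tied to the cytoskeleton by scaffold proteins such as the product of Tjp1. Schwann cells build junctions of the same kind between the layers of their own myelin wraps, so that a whole-nerve library mixes at least 3 sources of junction transcripts. In such bulk samples fewer cells of a type and less RNA per cell cannot be told apart.

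Hsf1, with 1 allele deleted in both groups, reached an FPKM of 7.94 (HSF V30M) and 15.0 (HSF WT). Mouse Ttr, which HSF V30M mice lack and HSF WT mice carry, went against these genotypes: it had 6.10 in the group labelled HSF V30M, from about 130 to 154 fragments, and HSF WT, as labelled, had 0 (3 fragments would be 0.197). Reads of the human transgene were not told apart from mouse Ttr here, and every direction below rests on the group labels as given. The worth of 1 fragment, read from the low values, placed the deeper HSF V30M library 1.23-fold above the deeper HSF WT library. The intervals below come from the smallest fragment number that the transcript lengths allow, at 95% confidence, and cover counting error only.

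Among the 9 genes, 2 were more than 1.5-fold higher in HSF V30M than in HSF WT, Cldn11 and Cldn5, and none was more than 1.5-fold lower. Of the 15620 genes whose mean FPKM over the groups was 1 or more, 11.3% were higher and 11.2% lower by this fold, and 22.5% passed it in either direction. At a fold of 2, which 5.55% of genes passed upwards and 5.79% downwards, Cldn11 alone was higher and again none was lower. All 9 genes passed that minimum. The ratios that follow are linear FPKM ratios, and log2 values are log2((HSF V30M + 1) / (HSF WT + 1)), which understates the difference of low genes. On this scale the median of the 9 genes was -0.01, against 0.00 for the 15620 genes, with 4 genes above 0 and 5 below.

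**Figure D1:**
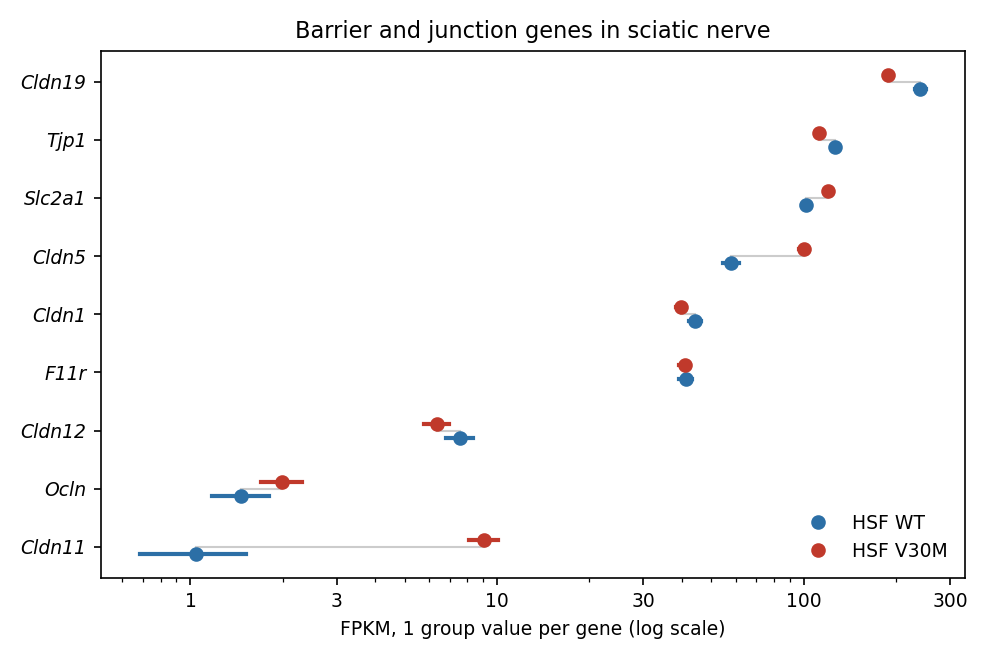
FPKM of the 9 barrier and junction genes in sciatic nerve, 1 point per gene and group, on a log axis. Bars are 95% counting intervals and hold no spread between mice; Cldn11, with 9.06 against 1.04, and Cldn5, with 100.2 against 57.9, have the widest gaps between the groups.

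Cldn11 encodes a claudin best known from the myelin of oligodendrocytes and from the Sertoli cell barrier of the testis. Its FPKM was 9.06 in HSF V30M against 1.04 in HSF WT, an 8.71-fold higher value with a counting interval from 5.83 to 13.5. The gene lies on the plus strand of GRCm38 at chr3:31149920-31164324 and has 1 annotated transcript of 1870 bases in 3 exons, shared with no other gene, so its values stand for about 328 to 387 fragments in HSF V30M and 27 to 36 in HSF WT. It was the lowest of the 9 genes in HSF WT and the seventh in HSF V30M. The log2 ratio was 2.30, and 1.47% of the 15620 genes had a higher one.

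Markers of oligodendrocytes and of the leptomeninges were listed after the value of Cldn11 was known, and no list was made for other cells that carry it. The 6 oligodendrocyte markers (Mog, Mobp, Opalin, Olig1, Olig2 and Ermn) summed to an FPKM of 0.84 in HSF V30M against 1.80 in HSF WT, none reached a mean of 1, and Opalin and Ermn are listed at 0 in HSF WT. The 5 leptomeningeal markers summed to 15.6 and 15.3, and 3 of them were below a mean of 1. Most of that sum was Slc6a13, a transporter of gamma-aminobutyric acid, with 11.5 in HSF V30M against 12.7 in HSF WT, while Ptgds, the prostaglandin D2 synthase, had 2.97 and 1.67. The part of leptomeningeal RNA in the Cldn11 value was not tested.

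Cldn5 encodes the main claudin of barrier endothelium. It had an FPKM of 100.2 in HSF V30M against 57.9 in HSF WT, a ratio of 1.73 (1.61 to 1.86), from 2642 to 3110 fragments against 1087 to 1464. Cldn5 is a gene of 1 exon and 1416 bases on the plus strand at chr16:18776847-18778262, and no other gene shares its locus. Its log2 ratio was 0.78, and 5.36% of all genes had a higher one.

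The list of endothelium markers also leaned towards HSF V30M, with a median log2 ratio below that of Cldn5. The 10 endothelium markers, all with a mean of 1 or more, summed to 311 in HSF V30M against 256 in HSF WT, with 7 above and 3 below 0 on the log2 scale and a median of 0.27. Vwf, which encodes von Willebrand factor, had a higher ratio than Cldn5, with an FPKM of 52.5 against 27.3. Flt1, a receptor of vascular endothelial growth factor, had 10.1 and 5.77, and its linear ratio of 1.75 was above that of Cldn5 while its log2 ratio, with the pseudocount, was below. Egfl7, the highest of the list, had 95.5 and 78.6. A pair of adhesion genes, chosen after their values were seen, differed in sign: Pecam1 had 44.9 in HSF V30M against 56.5 in HSF WT, and Cdh5, the cadherin of endothelial adherens junctions, had 40.8 and 33.8. Cldn5 per unit of marker FPKM restates how its ratio compares with that of each marker. It was higher in HSF V30M for 8 of the 10 markers, as with Pecam1 (2.23 against 1.02) and Cdh5 (2.46 against 1.71). It was lower in HSF V30M per unit of Vwf (1.91 against 2.12) and of Flt1 (9.95 against 10.04). Whether more endothelial RNA in the HSF V30M libraries had a part in the Cldn5 value was not tested.

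The promoters of the 2 genes past the fold are shown with that of Cldn19, the highest of the 9 genes, as the 250 bases before the RefSeq start site on GRCm38.p6. Capitals mark matches, on either strand, to any of 5 motifs. The heat shock element, bound by the protein of Hsf1, was searched as GAANNTTC or as its other arrangement, TTCNNGAA. The E-box that Snail-type repressors bind was searched as CACCTG. The GC box that SP factors bind was searched as GGGCGG. The TATA box of core promoters was searched as TATAAA. The core word of SOX and LEF factors was searched as ACAAAG. The windows are chr3:31149670-31149919 on the plus strand for Cldn11, chr16:18776597-18776846 on the plus strand for Cldn5 and chr4:119255191-119255440 on the plus strand for Cldn19, whose window ends just inside the first exon that GENCODE annotates.
Cldn11: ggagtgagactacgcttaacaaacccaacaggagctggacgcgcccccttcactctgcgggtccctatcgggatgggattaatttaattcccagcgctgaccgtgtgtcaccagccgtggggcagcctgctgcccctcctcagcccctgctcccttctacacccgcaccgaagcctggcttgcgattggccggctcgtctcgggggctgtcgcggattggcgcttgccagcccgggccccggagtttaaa
Cldn5: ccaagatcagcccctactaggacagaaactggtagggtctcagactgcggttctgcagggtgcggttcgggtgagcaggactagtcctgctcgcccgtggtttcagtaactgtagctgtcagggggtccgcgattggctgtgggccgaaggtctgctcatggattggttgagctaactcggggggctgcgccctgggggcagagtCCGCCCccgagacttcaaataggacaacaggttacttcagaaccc
Cldn19: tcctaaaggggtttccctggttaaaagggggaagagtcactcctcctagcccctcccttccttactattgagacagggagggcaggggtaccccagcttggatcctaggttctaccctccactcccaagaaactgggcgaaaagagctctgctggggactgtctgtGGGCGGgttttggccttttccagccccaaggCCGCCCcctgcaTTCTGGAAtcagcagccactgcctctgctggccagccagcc
The Cldn11 window held none of these motifs, the Cldn5 window held 1 GC box, and the Cldn19 window held 2 GC boxes and 1 heat shock element, all without overlap between motifs. Cldn11 had 63.6% G and C with 19 CpG, Cldn5 59.6% with 12, and Cldn19 59.2% with 3, where the median of 32851 RefSeq promoters was 52.4% with 6. All 9 genes matched this table, with 13 promoters, and windows of 1 gene can overlap. The Cldn19 windows hold the same heat shock element and the same GC boxes, and 2 Cldn12 windows hold the same GC box. The counts of promoters below therefore count these sites more than once. A GC box stood in 11 of the 13, in every gene but Cldn11, and in 32.7% of all promoters. Heat shock elements stood in 3 of the 13, belonging to Cldn19 and F11r, and in 12.8% of all promoters, E-boxes in 2 of the 13 (F11r and Ocln; 17.2% of all), SOX or LEF cores in 1 (Cldn1; 16.5% of all) and TATA boxes in none (12.4% of all).

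Cldn19 encodes the claudin of Schwann cells, which seals the paranodal loops and mesaxons of myelin. It was the highest of the 9 genes in both groups, with an FPKM of 189 in HSF V30M against 240.2 in HSF WT, and the HSF WT value was 1.27-fold the HSF V30M value (1.21 to 1.34). Its log2 ratio of -0.35 was the lowest of the 9 genes, and 16.6% of all genes had a lower one. Cldn19 lies at chr4:119255414-119262438 on the plus strand. Its 2 transcripts of 924 and 4168 bases leave the fragment number wide, between 2964 and 19147 in HSF V30M and between 2685 and 19835 in HSF WT, and a non-coding gene on the other strand, Gm12927, shares its locus at an FPKM of 1.40 and 1.31. The 10 Schwann cell markers did not lean the same way: their median log2 ratio was 0.07, with 5 above and 5 below 0, and all 10 had a higher ratio than Cldn19. S100b, a calcium-binding protein of Schwann cells, was past the fold with 328 and 201.

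Cldn1, the claudin of the perineurium, differed less than 1.5-fold between groups. Its FPKM was 39.9 in HSF V30M against 44.2 in HSF WT, so that the HSF WT value was 1.11-fold the HSF V30M value (1.05 to 1.17). It is annotated on the minus strand at chr16:26356642-26371841. The other perineurium markers were mixed. Itgb4, the laminin-binding integrin beta 4 that perineurial and Schwann cells share, had 309.7 and 257, Msln, which encodes mesothelin, had 39.5 and 24.7 and was past the fold at 1.60, and Lypd2 and Krt19, a keratin, named with their values known, had 17.9 against 11.9 and 13.9 against 17.2. With Cldn1 and Slc2a1 included, the 6 markers summed to 541 and 456, with a median log2 ratio of 0.26.

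Slc2a1 encodes the glucose transporter GLUT1, present in perineurium and in endoneurial endothelium. It had an FPKM of 120.0 in HSF V30M against 101 in HSF WT, a ratio of 1.18 (1.14 to 1.23), from 7970 to 9384 fragments against 4794 to 6455. Its log2 ratio of 0.24 lay 0.03 below the median of the other perineurium markers and 0.03 below that of the endothelium markers. The gene is on the plus strand at chr4:119108711-119137983, less than 1 megabase from Cldn19, and 3 non-coding genes with an FPKM of at most 2.98 share its locus. Of the other 10 glucose transporters 7 reached a mean of 1. None was more than 1.5-fold higher. Slc2a13, the proton and myo-inositol transporter, was lower by this fold, with 0.77 against 1.38, and reached the minimum only through HSF WT. Slc2a4, the insulin-responsive GLUT4 of muscle and fat, was the highest of them, with 13.7 and 12.4.

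Tjp1 encodes ZO-1, the scaffold that ties claudins, occludin and JAM proteins to actin. Its FPKM was 112 in HSF V30M against 127 in HSF WT, with the HSF WT value 1.13-fold the HSF V30M value (1.10 to 1.16) from at least 14394 fragments in HSF V30M against 11566 in HSF WT, the highest minimum of the 9 genes. It is annotated on the minus strand at chr7:65296165-65527781. Of 12 other junction scaffold genes 10 reached a mean of 1, with a median log2 ratio of -0.06; 2 were past the fold towards HSF V30M and 1 towards HSF WT. Magi1, a scaffold with guanylate kinase and PDZ domains, had 67.9 in HSF V30M against 15.2 in HSF WT, a ratio of 4.45 (4.17 to 4.76), although 2 other genes share its locus. Ybx3, a Y-box protein that binds ZO-1, had 50.2 and 28.8, and Cgnl1, which encodes paracingulin, had 26.3 and 42.9. Mpdz, the highest of the list by the mean of both groups, had 46.6 and 47.9.

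F11r encodes JAM-A, an immunoglobulin-type adhesion protein of tight junctions. It was the most even of the 9 genes, with an FPKM of 40.9 in HSF V30M against 41.2 in HSF WT, and the counting interval of the HSF WT over HSF V30M ratio ran from 0.941 to 1.08. It lies on the plus strand at chr1:171437535-171464603. The other tight junction membrane proteins stayed within the fold: of 9 genes 6 reached a mean of 1 and had a median log2 ratio of 0.19. Jam3, which encodes JAM-C, was the highest, with 58.0 and 62.6.

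Ocln and Cldn12 were low in nerve. Ocln, which encodes occludin, had an FPKM of 1.99 in HSF V30M against 1.46 in HSF WT, a ratio of 1.36 whose counting interval (1.04 to 1.78) reaches past the fold of 1.5, from about 166 to 196 fragments against 87 to 117. Cldn12, a broadly expressed claudin without the usual PDZ-binding tail, had 6.36 and 7.56, with the HSF WT value 1.19-fold the HSF V30M value (1.03 to 1.37). Both are on the minus strand, Ocln at chr13:100496507-100552718 and Cldn12 at chr5:5489537-5514958.

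FPKM is per length, so levels can be ordered within a group. In HSF WT the order was Cldn19, Tjp1, Slc2a1, Cldn5, Cldn1, F11r, Cldn12, Ocln and Cldn11, in which Cldn1 and F11r, and Ocln and Cldn11, had overlapping counting intervals. In HSF V30M the order was Cldn19, Slc2a1, Tjp1, Cldn5, F11r, Cldn1, Cldn11, Cldn12 and Ocln, with overlap between F11r and Cldn1 only. The 23 numbered claudin genes of the table summed to an FPKM of 357 in HSF V30M against 360 in HSF WT. Cldn19 held 52.9% of this sum in HSF V30M against 66.8% in HSF WT, Cldn5 held 28.1% and 16.1%, and Cldn1 held 11.2% and 12.3%. The 5 claudins among the 9 genes held 96.4% and 97.6%. Of the other 18 claudins 4 are listed at 0 in both groups and 4 reached a mean of 1. Cldn14 had 5.58 in HSF V30M against 3.05 in HSF WT, a ratio of 1.83 (1.31 to 2.59). Cldn15 had 1.42 and 0.737, a ratio of 1.93 (1.10 to 3.51) on 19 to 25 fragments in HSF WT, and reached the minimum only through HSF V30M.

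**Figure D2:**
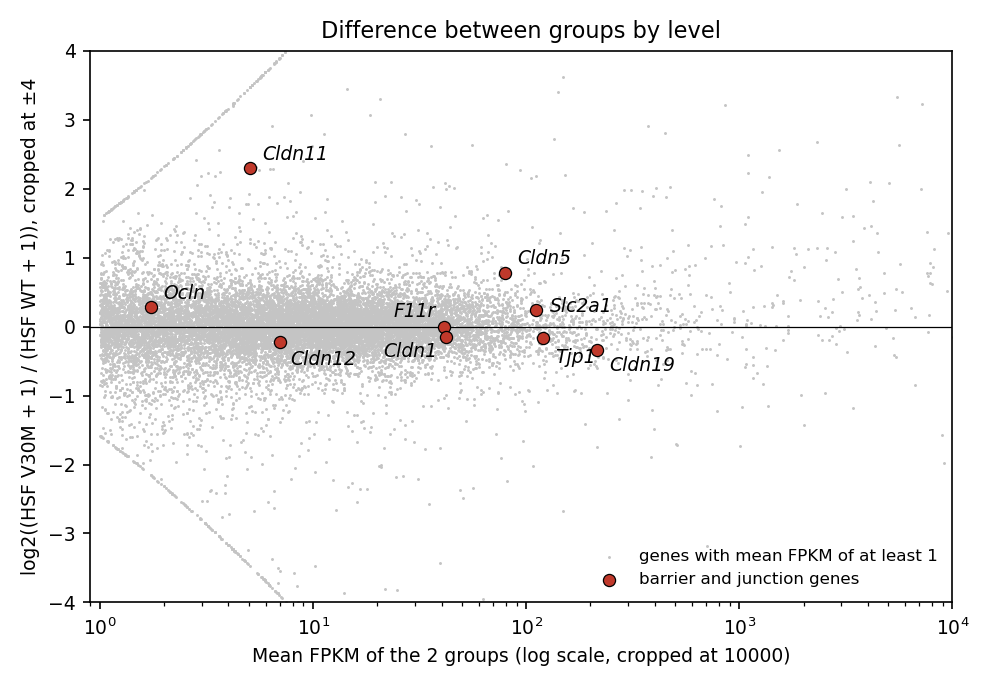
Difference between the groups, as log2((HSF V30M + 1) / (HSF WT + 1)), against the mean FPKM of the groups, with the 9 barrier and junction genes in red and all genes of mean FPKM 1 or more in grey. Cldn11 at 2.30 and Cldn5 at 0.78 are the highest of the 9, and the other 7 lie between -0.35 and 0.28.

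Other junction and barrier genes were described by list. Of the 10 adherens junction genes 9 had a log2 ratio above 0, with a median of 0.27, and 1 was past the fold: Cdh2, which encodes N-cadherin, had 13.3 in HSF V30M against 7.84 in HSF WT. Ctnnb1, which encodes beta-catenin, was the highest, with 296 and 257. None of the 6 gap junction genes with a mean of at least 1 was past the fold, and Gjb1, the connexin 32 gene of Schwann cells, was the highest, with 83.4 and 62.5. Among 12 barrier transporters 10 reached the minimum, with a median of 0.10. Slc7a5, which encodes the large neutral amino acid transporter LAT1, had 37.2 in HSF V30M against 14.5 in HSF WT, a ratio of 2.57 (2.37 to 2.79). Its locus is shared with 209 other genes of the table, which the counting interval does not take into account. The heavy chain partner of LAT1, Slc3a2, the highest of the list, had 212 and 242. Slc16a1, the monocarboxylate transporter MCT1, had 26.4 and 42.7. Abcb1b, a P-glycoprotein gene, had 3.78 and 7.07, and its paralogue Abcb1a had 23.9 and 21.1. How reads that fit both were counted was not tested, and these values are uncertain to that extent.

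Genes of barrier induction and of vesicle traffic centred on a log2 ratio of 0.23 in all 12 genes, 9 above and 3 below 0, and 2 were past the fold. Sox17, an endothelial transcription factor, had 11.5 and 6.14, and Adgra2, the receptor GPR124 that endothelium needs for Wnt7 signals, was 1.79-fold higher (1.66 to 1.92). Cav1, which encodes caveolin 1, was the highest, with 569 and 503. In the desert hedgehog pathway, by which Schwann cells direct the formation of the perineurium, the median over 7 genes was 0.01. The ligand Dhh had 90.5 in HSF V30M against 77.5 in HSF WT.

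**Figure D3:**
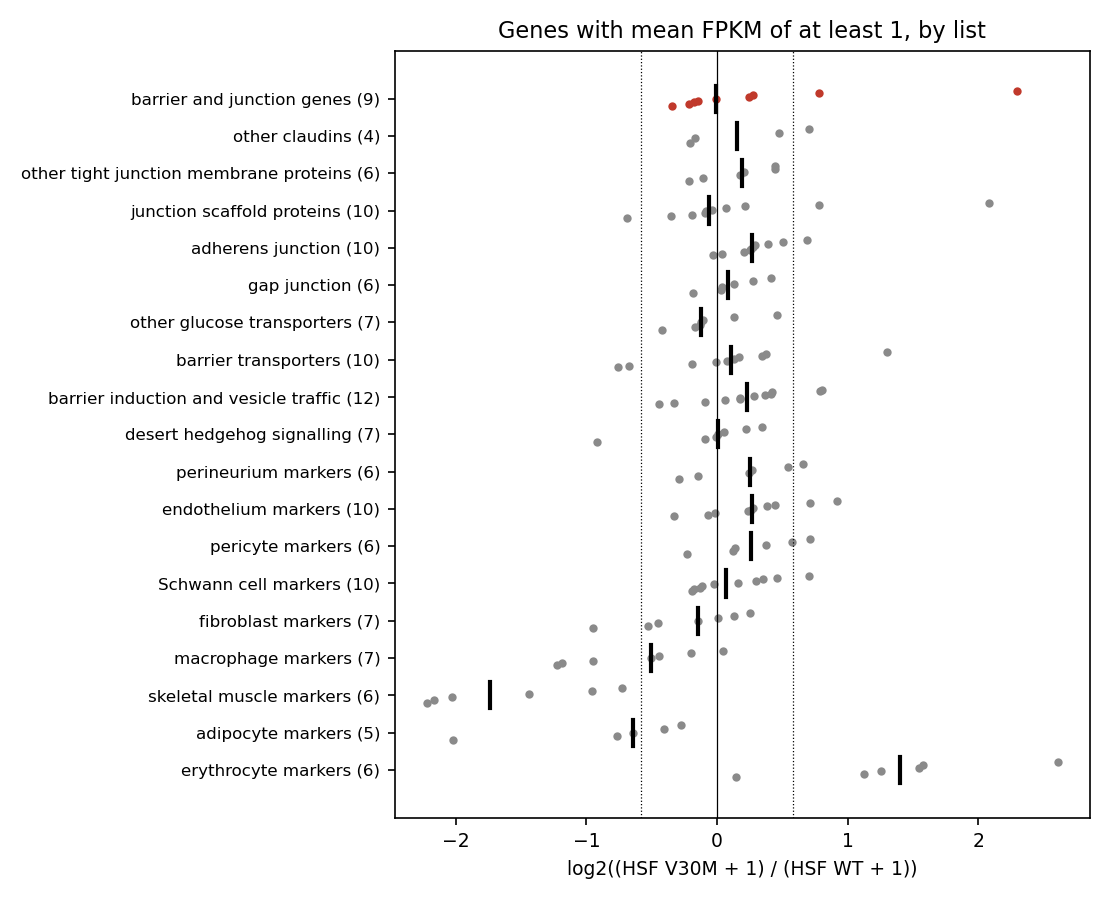
log2((HSF V30M + 1) / (HSF WT + 1)) of genes whose mean FPKM was 1 or more, 1 point per gene, for the 9 barrier and junction genes (red) and the other lists (grey), with the number of genes in parentheses. Black bars are medians and dotted lines stand at a fold of 1.5 of FPKM + 1; the 9 genes centre on -0.01, and skeletal muscle markers (-1.73) and erythrocyte markers (1.40) have the medians farthest from 0.

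Marker FPKM of muscle, fat, blood and other cell types also differed between the groups. Of 7 skeletal muscle markers 6 reached the minimum and all 6 were past the fold towards HSF WT, the list summing to 42.6 in HSF V30M against 149 in HSF WT, and Ckm, the muscle creatine kinase, had 8.97 and 43.8. Of 5 adipocyte markers 3 were past the fold towards HSF WT (sums of 1131 and 1733), as were 3 of 7 macrophage markers (238 and 427), among them the complement gene C1qb with 58.7 and 139, and 1 of 7 fibroblast markers (2249 and 2350). Of 7 erythrocyte markers 6 reached the minimum and 5 were past the fold towards HSF V30M (292 and 101). Pericyte markers summed to 147 and 114, with 2 of 6 past the fold towards HSF V30M: Rgs5, a regulator of G protein signals, had 32.7 and 19.5, and Notch3, a receptor of mural cells, had 13.9 and 9.03. Among 7 epithelium markers 5 were below the minimum, and Krt5 and Krt14, which define stratified epithelium, had at most 0.122 in either group. Krt8 had 0.16 and 0.0403, while Epcam had 0.09 and 0.325 and Krt10 had 0.79 and 1.15. Krt18 was past the fold with 1.56 and 0.751, and reached the minimum only through HSF V30M. Cdh1, which is also in the adherens junction list, had 88.5 and 67.1. The part of these differences in the values of Cldn5, Cldn11 and the other genes was not tested.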

How the data were processed

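RNA of the sciatic nerves of 2 mice per group, HSF V30M and HSF WT, was sequenced with Ion Torrent libraries, and the authors aligned the reads to GRCm38. The submitters' processing notes name STAR, Cufflinks and Cuffdiff, and versions and the gene annotation are not given in the sources used here. The deposited FPKM are 1 Cuffdiff estimate per gene and group, written with decimal commas, which were replaced by points. The columns of the authors' own comparison (log2 fold change, test statistic, p-value, q-value and a mark of significance) were not used, and 23 genes for which Cuffdiff gave no estimate, having too many alignments, were dropped.

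Ratios were taken between the group values, with a pseudocount of 1 for log2 values, a minimum mean FPKM of 1 for lists and background, and a fold of 1.5 on the linear scale as the limit. A gene with an FPKM below 1 in 1 group could reach this minimum through the other group alone, so low genes past the fold are partly selected by their difference. No test was made, since there is 1 value per group. Depth was read from genes of 1 transcript that share their locus with no other. After shortening each transcript by 201 bases, FPKM times kilobases clustered at 0.048 and 0.0647 (HSF WT) and 0.0391 and 0.0461 (HSF V30M), taken as what 1 fragment is worth in each library. For HSF WT 97.8% of 986 low values came within 2% of a whole number of fragments. In the HSF V30M column, deposited with 2 decimals, 98.8% of 242 came within 5%, a weak check because the bands nearly touch. Fragment numbers are ranges over the transcripts paired with a RefSeq mRNA in GENCODE M21 and over both libraries, and intervals (Poisson for a level, exact binomial for a ratio) use the smallest number and assume that the isoform mix is alike in both groups. The search for this worth was tested on simulated data with unrounded values and worths near those of HSF WT. Values rounded as in the HSF V30M column were not simulated.

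The genes and lists were chosen with earlier results of these data known. List genes were named when past the fold, up to 4 per list, together with the highest gene, except that some genes are not reported here; 184 list genes matched by symbol and 1 by an older symbol. Alternatives were another pseudocount or none, median-of-ratios scaling, scaling to protein-coding genes, other minimum means, a fold of 2 and the fold on FPKM + 1. Work was done in Python 3.11.15 with scipy 1.17.1, pandas 2.3.3, numpy 2.4.6, and matplotlib 3.10.9 for figures.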

Additional observations from a re-analysis of the deposited data

How the results depend on the processing

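No paired analysis was possible because each group has a single FPKM for its mice, and for the same reason neither a test per mouse was run nor could a replicate be left out. The log2 ratio of Cldn11 was 3.01 with a pseudocount of 0.1 and 3.12 without one, the latter added after seeing the data, since the pseudocount shrinks low values. The number of genes more than 1.5-fold higher was 2; it was 1, Cldn11, at a fold of 2, which 5.55% of all genes passed in that direction, and stayed at 2 under the other settings. The 9 single ratios were recomputed under 4 settings. The counting interval is built around the ratio without a pseudocount, 1 of these settings, whose values lie within it by construction. Both scalings shifted the ratios only slightly. Of 36 values 34 lay within the interval, a count that was largely fixed beforehand and is no check of robustness. The exceptions were Cldn11 with median-of-ratios scaling (2.30) and with scaling to protein-coding genes (2.32), both with the pseudocount of 1. The reported log2 ratio of Cldn11, 2.30, also lay below its interval, which ran from 2.54 to 3.76 in log2. F11r, and with it the median of the 9 genes, went from -0.01 to 0.01 with scaling to protein-coding genes. Of 99 list medians recomputed 16 moved by more than 0.1 and 5 changed sign. The median of the other tight junction membrane proteins was -0.09 without a minimum mean, and that of the other glucose transporters was 0.29 over the 2 genes with a mean of at least 5. Depth limits Cldn11 and Ocln in HSF WT, with as few as 27 and 87 fragments.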
